A study of Homo sapiens with 12 samples.

Results

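The 36 genes described here encode the machinery that brings newly made proteins to the endoplasmic reticulum (ER), threads them through or into its membrane and removes their signal peptides. They were taken by gene symbol from a table of 28278 symbols by the role of their products, with earlier results of these data known. The list covers 6 protein subunits of the signal recognition particle (SRP), 2 subunits of its receptor, 7 genes of the Sec61 channel with SEC62 and the TRAM proteins, and 4 subunits of the translocon-associated protein complex (TRAP). It also holds 6 genes of signal peptide cleavage, 9 of the ER membrane protein complex (EMC), and TMCO1 and GET4. Tunicamycin blocks the first step of N-glycan assembly and is used to make unfolded glycoproteins collect in the ER. The tunicamycin group was alpha cells made by differentiation of the human embryonic stem cell line HUES-8 and held with 5 uM of the drug for 48 h. The DMSO group was cells of the same line and differentiation held with the solvent alone for the same time, and both groups were kept in 30 mL bioreactors at 40 rpm. Each group had 6 samples, numbered 1 to 6, of which numbers 1 to 3 were sequenced in batch 1 and numbers 4 to 6 in batch 2. The labels call them biological replicates and do not say whether each came from its own differentiation, and p-values therefore speak only of how these samples spread.

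Proteins bound for secretion or for membranes carry a hydrophobic stretch that SRP recognises as it leaves the ribosome. SRP pauses translation and docks at its receptor, and the ribosome is passed to the Sec61 channel, where TRAP and TRAM proteins assist and the signal peptidase complex cuts off the signal peptide. EMC inserts membrane segments that Sec61 handles poorly, TMCO1 works with the channel on proteins that cross the membrane many times, and GET4 helps to hand over proteins anchored by their tail end. In alpha cells the route carries preproglucagon, the precursor of the hormone glucagon. During ER stress the transcription factors ATF6 and XBP1 bind promoter elements that end in or contain the letters CCACG, among them the ER stress element (ERSE) and the unfolded protein response element (UPRE).

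The promoters of these genes are shown first. The windows were those of RefSeq on GRCh38.p14, 250 bases before to 50 after each annotated start, and 30 of the 36 genes had at least 1 window (38 windows in all). Those without one were TRAM1, HM13 and SRPRA, all called higher with tunicamycin, and EMC2, SPCS1 and GET4, which were not called. The counts of matches below therefore leave these genes out. Both strands were searched for ERSE (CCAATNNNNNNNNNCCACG), ERSE-II (ATTGGNCCACG), UPRE (TGACGTGG) and the core ACGTG, which lies within UPRE and reads on both strands where it stands as CACGTG. No window of the 30 genes held ERSE or ERSE-II, which were in 0.0769% and 0.0541% of all 35116 windows. UPRE was in a window of 4 genes, SSR3, SEC62, SRP19 and SSR4, which is 13.3% of the genes matched, against 0.729% of all windows and 0.927% of all 27305 genes with a window. The 27305 genes include ones not tested here. Of tested genes with a window, 146 held UPRE and 12376 did not. The 30 bases around each match in the 4 genes are printed on the strand of the gene, where UPRE reads as CCACGTCA, in capitals.
SSR3 (chr3:156554148-156554177, minus strand, 41 bases before an annotated start): tctgataacagCCACGTCAgcaaggaaact
SEC62 (chr3:169966779-169966808, plus strand, 17 bases before the start): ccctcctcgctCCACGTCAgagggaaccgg
SRP19 (chr5:112861164-112861193, plus strand, 112 bases before the start): aagtcttcatgCCACGTCAgagactagaga
SSR4 (chrX:153794528-153794557, plus strand, 129 bases before an annotated start): tcagggaggggCCACGTCAgtgctgccaga
SSR3 and SRP19 were called higher with tunicamycin and SEC62 and SSR4 were not, as their values below show.

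Whole stretches of 250 bases before a start are shown for contrast, on the strand of the gene and with any ACGTG or UPRE letters in capitals. SSR3 rose and has 4 core matches before 1 of its 3 RefSeq starts, a start that lies within the span of the gene. SPCS3 had the smallest adjusted p of the 36 genes and its stretch holds no match. SRP14 was the only gene called lower, and its stretch holds none either.
SSR3 (chr3:156554126-156554375, minus strand): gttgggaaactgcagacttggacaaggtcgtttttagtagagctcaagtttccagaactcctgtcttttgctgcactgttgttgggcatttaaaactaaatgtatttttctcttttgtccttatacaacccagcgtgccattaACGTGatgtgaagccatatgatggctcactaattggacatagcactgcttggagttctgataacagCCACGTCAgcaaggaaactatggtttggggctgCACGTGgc
SPCS3 (chr4:176319716-176319965, plus strand): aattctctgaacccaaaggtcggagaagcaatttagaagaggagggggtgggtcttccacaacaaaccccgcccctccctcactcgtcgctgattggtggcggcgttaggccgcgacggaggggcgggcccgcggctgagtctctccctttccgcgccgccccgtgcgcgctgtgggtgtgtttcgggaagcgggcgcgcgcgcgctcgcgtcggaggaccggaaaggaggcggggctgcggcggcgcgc
SRP14 (chr15:40039203-40039452, minus strand): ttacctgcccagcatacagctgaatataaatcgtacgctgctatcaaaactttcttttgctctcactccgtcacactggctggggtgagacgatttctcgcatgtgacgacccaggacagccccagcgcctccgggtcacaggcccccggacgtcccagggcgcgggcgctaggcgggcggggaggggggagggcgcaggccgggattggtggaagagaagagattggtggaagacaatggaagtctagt
The core ACGTG was in a window of 12 of the 30 genes (40.0%), against 21.4% of all windows and 24.9% of all genes with a window. All genes with a window include ones not tested here, while the 30 were all tested. Of tested genes with a window, 3861 held the core and 8661 did not. Of the 12 genes of the list with the core, 9 were called higher with tunicamycin (EMC9, SEC11C, SEC61A1, SEC61G, SPCS2, SRP19, SRPRB, SSR1 and SSR3) and 3 were not called (SEC62, SRP54 and SSR4). Of the 18 genes without it, 5 were called higher (SEC61B, SPCS3, SRP72, SSR2 and TRAM2) and 1 lower (SRP14). Among all tested genes with a window, 6.63% of 3861 with the core and 4.16% of 8661 without it were called higher. For UPRE these shares were 16.4% of 146 and 4.78% of 12376. Within the list UPRE did not separate the called genes. Of the 4 genes with it 2 were called higher, and of the 26 without it 12 were. Their median log2 fold changes were 0.28 with UPRE and 0.33 without it. These are matches of letters, and no binding was measured.

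Of the 36 genes, 17 were higher and 1 was lower in the tunicamycin samples than in the DMSO samples, and 18 were not called, by edgeR's quasi-likelihood test with an adjusted p under 0.05. This main fit held sequencing batch and not the sample number, so it did not pair the samples. All 36 passed the filter on low counts. Among all 16613 genes tested, 4.7% were called higher and 3.42% lower. The median log2 fold change, tunicamycin over DMSO, was 0.34 over the 36 genes and -0.01 over all genes tested, and 31 of the 36 lay above 0. In 13 of the 36 every tunicamycin sample had a higher CPM (the count scaled to library size with TMM factors) than every DMSO sample, as in 2.55% of all genes. In none of them was every tunicamycin sample below every DMSO sample, as in 1.3% of all genes. Summed over the 36 genes, transcripts reached 7526 ± 796 CPM in the tunicamycin samples and 5356 ± 561 CPM in the DMSO samples (mean ± SD, n = 6 each), and the lowest tunicamycin sample (6444 CPM) lay above the highest DMSO sample (6046 CPM). At an unadjusted p under 0.05, SRP14 and SRP9 were the genes of the list that were lower and 22 were higher, as were 11.4% and 11% of all genes tested. DESeq2 called the same 2 lower and 20 higher, among 6.06% and 6.56% of all genes, and so did edgeR on total counts without scaling factors, among 3.85% and 4.62%. With the sample number as a block, 22 were called higher and 2 lower, among 9.19% and 8.6% of all genes. In these bulk samples a change in RNA per cell and a change in the share of cells of a type cannot be told apart.

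**Figure D1:**
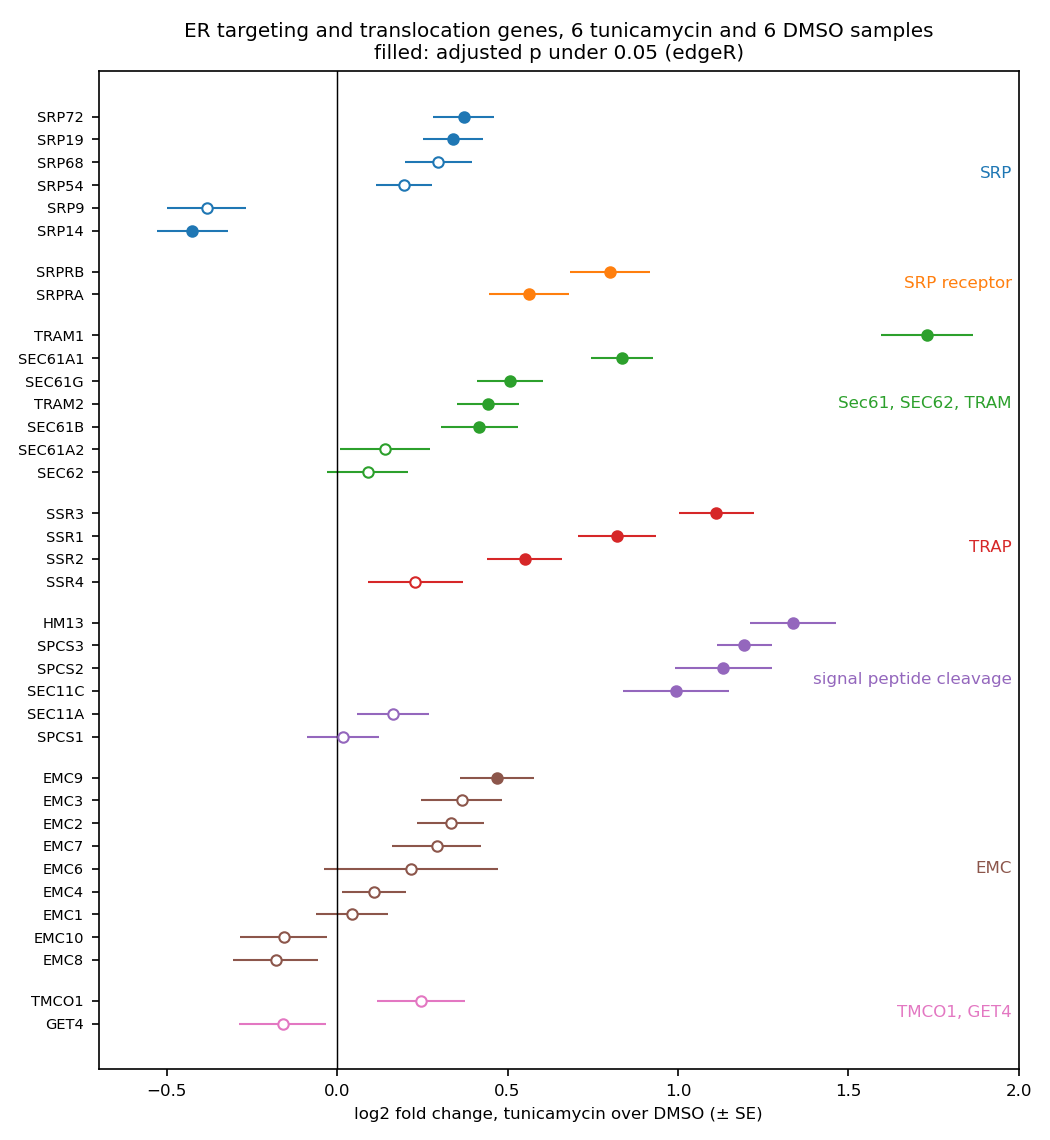
Log2 fold change (tunicamycin over DMSO, horizontal axis) with its standard error for each of the 36 genes, grouped by role, with filled points for an adjusted p under 0.05. TRAM1 lies furthest right at 1.73, 4 of the 6 genes of signal peptide cleavage lie near or above 1, EMC genes lie between -0.18 and 0.47, and SRP14 and SRP9 lie left of 0.

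The SRP subunits moved in both directions. SRP72 and SRP19 were higher with tunicamycin and SRP14 was lower, while SRP54, SRP68 and SRP9 were not called, and the median of the 6 was 0.25 (0.21 and 0.29 in batches 1 and 2). SRP72 (chr4:56467336-56503681), which with SRP68 forms the scaffold at the end of the particle that binds signal sequences, had 130.1 CPM at the lowest, 140.2 at the median and 153 at the highest in the tunicamycin samples, against 91.5, 109 and 124 CPM in the DMSO samples. Every tunicamycin sample lay above every DMSO sample. The change was 1.29-fold (log2 0.37 ± 0.09 SE, edgeR adjusted p = 0.0207), and the call was lost without tunicamycin 4 (adjusted p = 0.0638). SRP19, which helps the particle to assemble on its RNA, had 66.8, 73.7 and 77.8 CPM (lowest, median, highest) with tunicamycin, against 50.9, 56.6 and 69.4 CPM with DMSO. The groups overlapped by a narrow margin, and 5 of the 6 same-numbered pairs were higher with tunicamycin. Its log2 fold change was 0.34 ± 0.09 (edgeR adjusted p = 0.0290). This call was lost without tunicamycin 3, 4 or 6 or without DMSO 4 or 6 (0.0513 to 0.0709), and without the filter on low counts (0.0542).

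SRP14 and SRP9 bind the RNA of the particle as a pair and are needed for the pause in translation. SRP14 (chr15:40035739-40039188) had 230.4 CPM at the lowest, 280.2 at the median and 302 at the highest in the tunicamycin samples, against 272, 362 and 424 CPM in the DMSO samples. All tunicamycin samples lay below 5 of the 6 DMSO samples, and DMSO 3 lay among them. The change was 0.745-fold (log2 -0.42 ± 0.10 SE, edgeR adjusted p = 0.0223), with -0.42 in batch 1 and -0.41 in batch 2. The call was lost without tunicamycin 4 (adjusted p = 0.0647), tunicamycin 5 (0.0572) or DMSO 1 (0.0535). Its partner SRP9 had 196, 221 and 289 CPM (lowest, median, highest) with tunicamycin, against 236, 287 and 367 CPM with DMSO, with overlapping groups. In all 6 same-numbered pairs SRP9 was lower with tunicamycin, yet it was not called (log2 -0.38 ± 0.12, edgeR adjusted p = 0.0583). With the number as a block it was called lower (adjusted p = 0.0160), as it was by DESeq2 (0.0135), on total counts without scaling factors (0.0178), and without tunicamycin 2 (0.0350) or DMSO 3 (0.0294). SRP54, the subunit that binds the signal sequence and GTP, had a log2 fold change of 0.20 ± 0.08 (adjusted p = 0.175). SRP68 had one of 0.30 ± 0.10 (adjusted p = 0.0837), and was called higher with the block (0.0129), by DESeq2 (0.0372), on total counts (0.0465) and without DMSO 2 (0.0372). As SRP14 and SRP9 hold a large part of the counts, the sum of the 6 genes was 931 ± 60.5 CPM in the tunicamycin samples and 1006 ± 108 CPM in the DMSO samples (SD, n = 6 each), with ranges that overlapped. GENCODE names 4 pseudogenes of SRP14, 3 of SRP68, 2 of SRP72 and 1 of SRP9, so part of the reads of these genes may have been counted elsewhere or not at all.

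Both subunits of the SRP receptor rose. SRPRB (chr3:133784033-133825772), the GTPase that anchors the receptor in the membrane, had 82.4 CPM at the lowest, 108 at the median and 118 at the highest in the tunicamycin samples, against 48.1, 59.8 and 74.7 CPM in the DMSO samples. The groups did not overlap. It was 1.74-fold higher (log2 0.80 ± 0.12 SE, edgeR adjusted p = 0.000722), with 0.70 in batch 1 and 0.91 in batch 2. SRPRA (chr11:126262919-126269144), the subunit that meets SRP54, had 198 CPM at the lowest, 242 at the median and 259 at the highest in the tunicamycin samples, against 124, 159 and 198 CPM in the DMSO samples. These groups did not overlap either, though tunicamycin 1, the lowest of its group, lay close to the highest DMSO sample. It was 1.48-fold higher (log2 0.56 ± 0.12 SE, edgeR adjusted p = 0.00879), with 0.43 in batch 1 and 0.71 in batch 2. Both calls held when any 1 sample was left out. Summed, the receptor genes gave 342 ± 27.2 CPM in the tunicamycin samples and 221 ± 31.7 CPM in the DMSO samples (SD, n = 6 each).

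Around the channel, 5 of 7 genes rose, none fell, and the median was 0.44 (0.41 and 0.51 in batches 1 and 2). TRAM1, a membrane protein that touches signal sequences as they enter the channel, had 449 CPM at the lowest, 507 at the median and 726 at the highest in the tunicamycin samples, against 127, 155 and 207 CPM in the DMSO samples. The groups were far apart, the lowest tunicamycin sample standing well above the highest DMSO sample. Its rise of 3.32-fold (log2 1.73 ± 0.14 SE, edgeR adjusted p = 3.39e-06) was the largest of the 36 genes, with 1.76 in batch 1 and 1.71 in batch 2. SEC61A1 (chr3:128051641-128071683), the subunit that forms the pore, had 557 CPM at the lowest, 650.2 at the median and 698 at the highest in the tunicamycin samples, against 320.2, 352 and 394 CPM in the DMSO samples. No tunicamycin sample came near the DMSO range. It was 1.78-fold higher (log2 0.84 ± 0.09 SE, edgeR adjusted p = 6.70e-05), with 0.78 in batch 1 and 0.90 in batch 2.

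The small channel subunits SEC61G and SEC61B had smaller fold changes than SEC61A1, a difference that was not tested. SEC61G rose (log2 0.51 ± 0.10, edgeR adjusted p = 0.00489), with 71.1 to 89.2 CPM with tunicamycin and 48.4 to 67.1 CPM with DMSO and no overlap. SEC61B rose as well (log2 0.42 ± 0.11, adjusted p = 0.0373), with 95.7 to 137 CPM with tunicamycin and 64.3 to 95.9 CPM with DMSO. The SEC61B groups overlapped slightly, and its call was lost without number 2, 3, 4 or 6 of either group (adjusted p = 0.0510 to 0.0889). SEC61A2, the paralog of the pore subunit, had 32.7, 40.0 and 47.3 CPM (lowest, median, highest) with tunicamycin, against 28.7, 34.2 and 49.4 CPM with DMSO. Its groups overlapped widely and it was not called (log2 0.14 ± 0.13, edgeR adjusted p = 0.583). TRAM2, the paralog of TRAM1, had 64.7, 72.2 and 77.4 CPM (lowest, median, highest) with tunicamycin, against 43.3, 53.6 and 59.6 CPM with DMSO. Its groups did not overlap (log2 0.44 ± 0.09, edgeR adjusted p = 0.00879). SEC62, which with SEC63 serves proteins that reach the channel after translation, was not called (log2 0.09 ± 0.12, adjusted p = 0.714), with 4 of 6 pairs higher. The 7 genes summed to 1764 ± 153 CPM in the tunicamycin samples and 1022 ± 74.4 CPM in the DMSO samples (SD, n = 6 each).

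**Figure D2:**
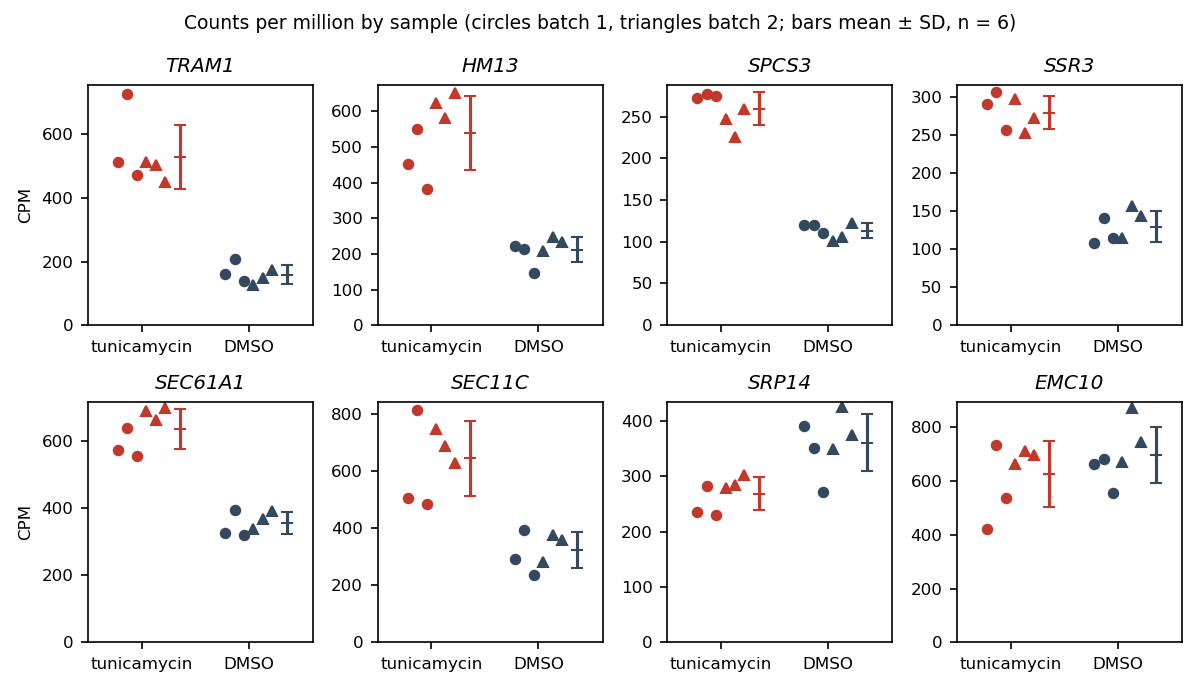
CPM (vertical axis, from 0) in each tunicamycin and DMSO sample for 8 of the genes, with circles for batch 1, triangles for batch 2 and bars for the mean ± SD of 6 samples. The groups are apart for TRAM1, HM13, SPCS3, SSR3, SEC61A1 and SEC11C, while SRP14 is lower with tunicamycin except for DMSO 3 and the groups of EMC10 overlap.

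TRAP, which sits beside the channel and helps certain proteins to start their passage, had 3 of 4 subunits higher and none lower, with a median of 0.69 (0.66 and 0.73 in batches 1 and 2). SSR3 (chr3:156540140-156555184), the gamma subunit, had 253 CPM at the lowest, 282 at the median and 306 at the highest in the tunicamycin samples, against 108, 128 and 156 CPM in the DMSO samples. The groups were well separated. It was 2.16-fold higher (log2 1.11 ± 0.11 SE, edgeR adjusted p = 2.63e-05), with 1.25 in batch 1 and 0.99 in batch 2. SSR1 (chr6:7268306-7347446), the alpha subunit, had 312 CPM at the lowest, 334 at the median and 400.1 at the highest in the tunicamycin samples, against 169.6, 186 and 253 CPM in the DMSO samples. Its groups did not overlap, and it was 1.77-fold higher (log2 0.82 ± 0.11 SE, edgeR adjusted p = 0.000496). SSR2, the beta subunit, rose (log2 0.55 ± 0.11, adjusted p = 0.00678), with 169 to 274 CPM with tunicamycin and 116 to 193 CPM with DMSO, so that its groups overlapped. SSR4, the delta subunit, had 267 to 468 CPM with tunicamycin and 223 to 475 CPM with DMSO and was not called (log2 0.23 ± 0.14, adjusted p = 0.365). Both SSR4 groups spread widely, and 4 of 6 pairs were higher with tunicamycin. TRAP genes summed to 1232 ± 144 CPM in the tunicamycin samples and 801 ± 128 CPM in the DMSO samples (SD, n = 6 each).

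Signal peptide cleavage was the group with the highest median, 1.06 (1.00 and 1.09 in batches 1 and 2), with 4 of 6 genes higher and none lower. SPCS3 (chr4:176319964-176332245), a subunit the signal peptidase needs for its activity, had 226 CPM at the lowest, 266 at the median and 277 at the highest in the tunicamycin samples, against 101, 115 and 122 CPM in the DMSO samples. Both groups were tight and far apart. It was 2.29-fold higher (log2 1.19 ± 0.08 SE, edgeR adjusted p = 8.14e-07), with 1.25 in batch 1 and 1.16 in batch 2. HM13 (chr20:31514410-31577923), the signal peptide peptidase, which cuts freed signal peptides within the membrane, had 381 CPM at the lowest, 567 at the median and 650.0 at the highest in the tunicamycin samples, against 147, 218 and 248 CPM in the DMSO samples. Even the lowest tunicamycin sample was above the DMSO range. It was 2.53-fold higher (log2 1.34 ± 0.13 SE, edgeR adjusted p = 1.69e-05), with 1.26 in batch 1 and 1.43 in batch 2. SPCS2, an accessory subunit of the peptidase, was 2.19-fold higher (log2 1.13 ± 0.14 SE, adjusted p = 0.000208), with 181 to 279 CPM with tunicamycin and 80.5 to 140.0 CPM with DMSO. GENCODE names 4 pseudogenes of SPCS2, so its counts are less certain.

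SEC11A and SEC11C are the alternative catalytic subunits of the signal peptidase, and only SEC11C was called. SEC11C (chr18:59139477-59158836) had 484 CPM at the lowest, 659.9 at the median and 815 at the highest in the tunicamycin samples, against 235, 326 and 396 CPM in the DMSO samples. The groups did not overlap, and it was 1.99-fold higher (log2 0.99 ± 0.16 SE, edgeR adjusted p = 0.00138). SEC11A had 176, 206 and 235 CPM (lowest, median, highest) with tunicamycin, against 161, 183 and 202 CPM with DMSO. Those groups overlapped (log2 0.16 ± 0.11, edgeR adjusted p = 0.398). SPCS1, the other accessory subunit, had 78.3 to 109 CPM with tunicamycin and 83.5 to 124 CPM with DMSO, with 3 pairs higher and 3 lower (log2 0.02 ± 0.11, adjusted p = 0.950). Of its 5324 exon bases 3095 overlap genes on the other strand, and whether the counting used strand is not known here. The 6 genes together gave 2002 ± 273 CPM in the tunicamycin samples and 1044 ± 134 CPM in the DMSO samples (SD, n = 6 each).

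Log2 fold changes of the 9 EMC genes lay between -0.18 and 0.47. Only EMC9 was called in the main fit, while 4 were called higher with the sample number as a block, as were 9.19% of all genes. The median of the 9 was 0.22 (0.24 and 0.19 in batches 1 and 2). Their sum, to which EMC10 gave the most, was 1054 ± 157 CPM in the tunicamycin samples and 1069 ± 123 CPM in the DMSO samples (SD, n = 6 each). EMC9 (chr14:24138959-24141588), a subunit on the cytosolic side, had 22.2 CPM at the lowest, 27.8 at the median and 35.6 at the highest in the tunicamycin samples, against 16.2, 22.3 and 24.0 CPM in the DMSO samples. The groups overlapped, but all 6 same-numbered pairs were higher with tunicamycin. It was 1.38-fold higher (log2 0.47 ± 0.11 SE, edgeR adjusted p = 0.0171), and was not called without the batch covariate (0.0730). EMC8, its paralog and alternative in the complex, had 19.5, 22.9 and 26.8 CPM (lowest, median, highest) with tunicamycin, against 19.9, 25.3 and 33.1 CPM with DMSO. It was not called (log2 -0.18 ± 0.12, edgeR adjusted p = 0.435).

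EMC2, the cytosolic scaffold of the complex, had 48.0, 55.4 and 61.2 CPM (lowest, median, highest) with tunicamycin, against 35.7, 43.7 and 54.1 CPM with DMSO. Its groups overlapped in part, and its adjusted p of 0.0510 (log2 0.33 ± 0.10, edgeR) missed the threshold by little. With the sample number as a block EMC2, EMC3 and EMC7 were called higher (adjusted p = 0.0241, 0.00844 and 0.0246), and in each all 6 pairs were higher. EMC3, of the part that inserts membrane segments, had 33.5 to 53.8 CPM with tunicamycin and 30.1 to 41.4 CPM with DMSO (log2 0.36 ± 0.12, edgeR adjusted p = 0.0802). Tunicamycin 3 was the low sample of EMC3, and without it EMC3 was called (0.0181), as was EMC2 (0.0278); EMC2 was also called without DMSO 2 (0.0241). DESeq2 called EMC2 and EMC3 higher (adjusted p = 0.0186 and 0.0458), as did edgeR on total counts (0.0290 and 0.0481). EMC7, a subunit with a lumenal domain, had 93.8 to 152 CPM with tunicamycin and 78.1 to 119 CPM with DMSO (log2 0.29 ± 0.13, adjusted p = 0.205).

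The other EMC genes were not called with or without the block. EMC1, the large lumenal subunit, had a log2 fold change of 0.04 ± 0.11 (adjusted p = 0.857), and EMC4, a membrane subunit, one of 0.11 ± 0.09 (0.554). EMC10 took more CPM than any other EMC gene, with 422 to 733 CPM with tunicamycin and 557 to 873 CPM with DMSO, and was lower with tunicamycin in 5 of 6 pairs (log2 -0.16 ± 0.13, adjusted p = 0.519). EMC6, the other part of the inserting core, was counted only 24 to 47 times per sample, so that its log2 fold change of 0.22 ± 0.25 rests on few reads (edgeR adjusted p = 0.673). Of its 769 exon bases 571 overlap a gene on the other strand.

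TMCO1 and GET4 were not called in the main edgeR fit or by DESeq2, and neither had an unadjusted p under 0.05 in the main fit. TMCO1 (chr1:165724293-165827755), a channel-like protein of the complex for proteins with many membrane spans, had 90.2 CPM at the lowest, 116 at the median and 138 at the highest in the tunicamycin samples, against 70.1, 100.01 and 114 CPM in the DMSO samples. The groups overlapped, yet all 6 pairs were higher with tunicamycin (log2 0.25 ± 0.13, edgeR adjusted p = 0.284, and 0.0374 with the block, which makes it a call). GET4 (chr7:876552-896436), a cytosolic factor that works with BAG6 and UBL4A on tail-anchored proteins, had 75.8 CPM at the lowest, 86.6 at the median and 98.7 at the highest in the tunicamycin samples, against 76.3, 90.3 and 126 CPM in the DMSO samples. Its groups overlapped and its pairs were split (log2 -0.16 ± 0.13, edgeR adjusted p = 0.507). Of the 5392 exon bases of GET4, 1842 overlap a gene on the same strand.

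The list holds 4 pairs of paralogs, whose ratio of counts within a sample needs no scaling between libraries. The shift of each ratio was tested with a two-sided exact permutation test within batches (400 arrangements, smallest possible p 0.005), adjusted over the 4 pairs. SEC61A2 over SEC61A1 was 0.0511 at the lowest, 0.0578 at the median and 0.0825 at the highest with tunicamycin, against 0.0783, 0.0962 and 0.154 with DMSO. The groups overlapped slightly at that level, and the log2 ratio was lower with tunicamycin by -0.69 (exact p = 0.005, adjusted 0.00667). TRAM2 over TRAM1 was 0.0891 at the lowest, 0.142 at the median and 0.170 at the highest with tunicamycin, against 0.241, 0.321 and 0.470 with DMSO. There the groups did not overlap (log2 shift -1.28, exact p = 0.005, adjusted 0.00667), so TRAM2 rose less than TRAM1.

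SEC11C over SEC11A was 2.75 at the lowest, 3.15 at the median and 3.56 at the highest with tunicamycin, against 1.47, 1.80 and 2.21 with DMSO. Every tunicamycin sample lay above every DMSO sample (log2 shift 0.83, exact p = 0.005, adjusted 0.00667). EMC9 over EMC8 was 0.827 at the lowest, 1.26 at the median and 1.73 at the highest with tunicamycin, against 0.561, 0.784 and 1.12 with DMSO. These groups overlapped (log2 shift 0.64, exact p = 0.01, adjusted 0.0100). In all 4 pairs the counts thus shifted toward 1 of the paralogs, and each ratio shows unequal change, not which gene of a pair moved.

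**Figure D3:**
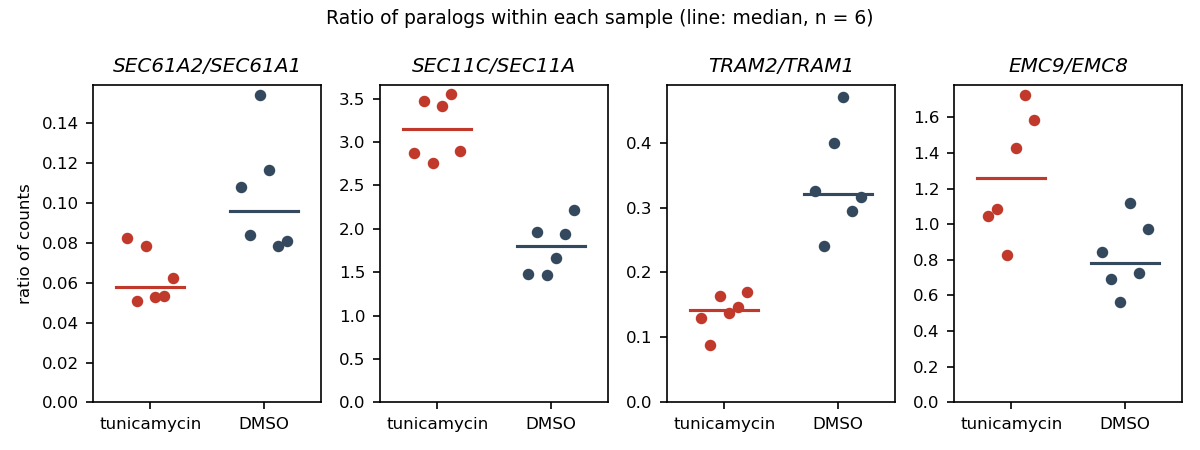
Ratio of the counts of 2 paralogs (vertical axis, from 0) in each tunicamycin and DMSO sample, with a line at the median of 6 samples. With tunicamycin SEC61A2/SEC61A1 and TRAM2/TRAM1 are lower and SEC11C/SEC11A and EMC9/EMC8 are higher, and the groups of TRAM2/TRAM1 and SEC11C/SEC11A do not overlap.

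Levels of different genes were compared per length, as CPM per kilobase of the principal GENCODE transcript (mean ± SD, n = 6 each). Where a gene had several principal transcripts, the longest was taken. SEC11C stood highest of the 36 genes with tunicamycin and below SRP14 with DMSO, at 537 ± 109.6 with tunicamycin and 269 ± 52.1 with DMSO. SRP14 reached 249 ± 27.0 with tunicamycin and 334 ± 47.7 with DMSO, and HM13 336 ± 64.6 with tunicamycin and 132 ± 21.9 with DMSO. HM13 thus stood above SRP14 with tunicamycin and below it with DMSO. The lowest levels were those of EMC6, at 2.24 ± 0.407 with tunicamycin and 1.97 ± 0.557 with DMSO, and TRAM2, at 10.4 ± 0.775 with tunicamycin and 7.62 ± 0.810 with DMSO. Within complexes whose subunits are built in equal numbers, levels per length still differed: the TRAP subunits ran from SSR1 at 35.9 ± 3.42 with tunicamycin and 20.3 ± 3.28 with DMSO to SSR4 at 229 ± 53.3 with tunicamycin and 194 ± 50.5 with DMSO. These levels depend on which transcript is taken for the length, and the transcripts in use were not measured.

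**Figure D4:**
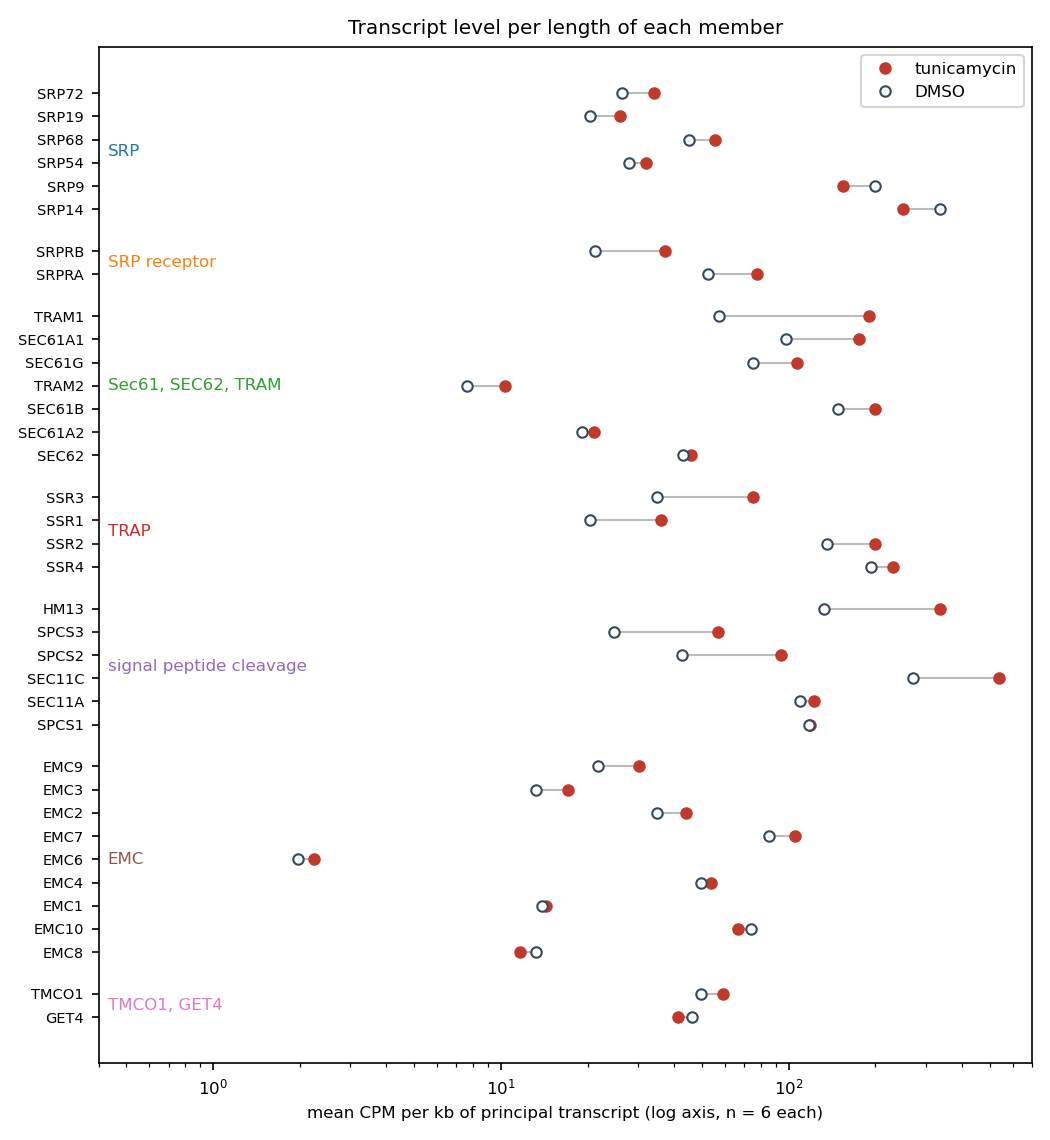
Mean CPM per kilobase of the longest principal transcript (horizontal log axis) of each gene in the tunicamycin samples (filled) and the DMSO samples (open), n = 6 each, grouped by role. SEC11C, HM13 and SRP14 stand highest with tunicamycin, SRP14, SEC11C and SRP9 with DMSO, and EMC6 and TRAM2 lowest with both, and the longest lines between groups are those of TRAM1, HM13, SPCS3, SSR3 and SPCS2.

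The samples were also compared within batches and within numbers. The median of the 36 genes was 0.31 and 0.34 in batches 1 and 2. No gene of the table had a called interaction of treatment and batch (edgeR, 0 of 16613, with 157 at an unadjusted p under 0.05, none of them among the 36). With so few genes of the whole table below that level, their absence among the 36 says little about agreement between the batches. Within 1 batch only 3 samples a group remain, and 3 of the 36 genes were called in batch 1 alone (TRAM1, SSR3 and SPCS3) and 11 in batch 2 alone, all higher, as were 0.307% and 2.71% of all genes in these fits, where 0.0361% and 1.27% were lower. Within same-numbered pairs, the median of the 36 log2 differences ran from 0.23 for number 5 to 0.50 for number 4. In 22 of the 36 genes all 6 pairs were higher with tunicamycin and in 2, SRP14 and SRP9, all were lower, against 1810 and 1759 of the 16613 genes. SPCS3 varied least between pairs, with log2 differences of 1.08 to 1.31, and EMC6 most, with -0.36 to 1.01.

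**Figure D5:**
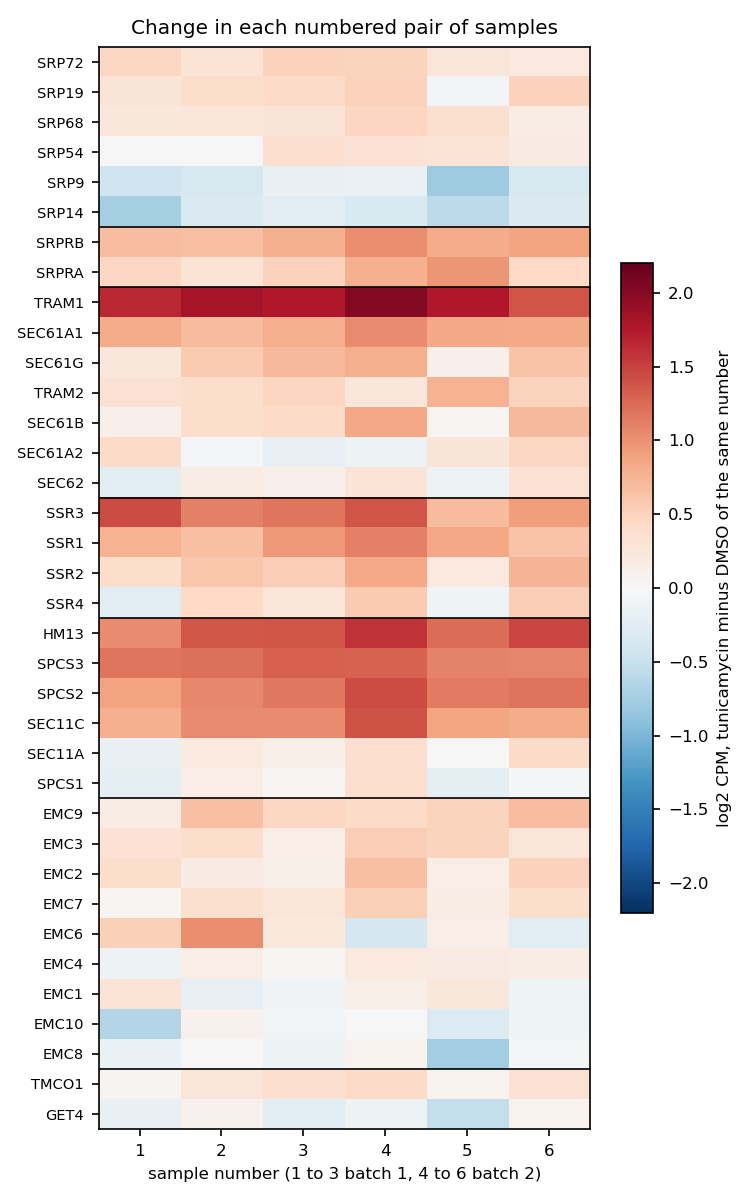
Log2 difference in CPM, tunicamycin minus DMSO of the same sample number (colour, red for higher with tunicamycin), for each gene (rows, by role) and number (columns, 1 to 3 batch 1 and 4 to 6 batch 2). TRAM1, HM13, SPCS3, SPCS2 and SEC11C are red in every column, and SRP14 and SRP9 are blue in every column. Most EMC cells are pale, the highest being EMC6 in number 2 (1.01) and the lowest EMC8 in number 5 (-0.76).

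Other genes of the same route, in a list of 25 of which 24 passed the filter, had 4 higher and none lower, with a median log2 fold change of 0.06. Among all genes tested 4.7% were higher and 3.42% lower. With the block 7 were higher, as were 9.19% of all genes, the added ones being MMGT1, the EMC subunit also called EMC5, and the BiP partners DNAJC1 and SIL1. SEC63, the channel partner of SEC62, had 288, 305 and 329 CPM (lowest, median, highest) with tunicamycin, against 133, 145 and 154 CPM with DMSO, with no overlap (log2 1.09 ± 0.08, edgeR adjusted p = 1.58e-06). SEC63 thus rose while SEC62 was not called; the difference between them was not tested. HSPA5, which encodes BiP, the chaperone that pulls chains in from the lumen, had 3681, 5718 and 6237 CPM (lowest, median, highest) with tunicamycin, against 628, 838 and 1054 CPM with DMSO (log2 2.63 ± 0.16, edgeR adjusted p = 3.73e-07). Its exchange factor HYOU1 rose too (log2 2.43 ± 0.16, adjusted p = 7.09e-07). CCDC47, a partner of TMCO1, had 162 to 227 CPM with tunicamycin and 124 to 181 CPM with DMSO and was called by a small margin (log2 0.42 ± 0.12, adjusted p = 0.0432). The other 20 were not called, and at an unadjusted p under 0.05 the list had 8 higher and 1 lower of 24, where 11% and 11.4% of all genes tested were.

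Of 12 genes of the oligosaccharyltransferase, the enzyme at the channel that attaches the glycans tunicamycin depletes, 7 were higher and none lower (median 0.75). Of 22 genes of the vesicle coats that carry cargo out of the ER and back, 21 passed the filter, 4 were higher and none lower (median 0.20), and 7 were higher with the block. Among all genes tested 4.7% were called higher and 3.42% lower, and 9.19% higher with the block. At an unadjusted p under 0.05, 7 of the 12 and 8 of the 21 were higher and none lower. At that level 11% of all genes were higher and 11.4% lower. DESeq2 called none of either list lower, against 6.06% of all genes.

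Libraries held 20252508 to 25131093 counts in the tunicamycin group and 17523442 to 28872269 in the DMSO group. The 36 genes took 0.681 to 0.782% of counts with tunicamycin and 0.484 to 0.575% with DMSO. Markers of the labelled cell type were present: GCG had 44815 to 68692 CPM with tunicamycin and 61895 to 91748 CPM with DMSO and IRX2 178 to 248 CPM with tunicamycin and 189 to 278 CPM with DMSO, and the 11 alpha cell markers summed to 78646 ± 12156 CPM in the tunicamycin samples and 99076 ± 17523 CPM in the DMSO samples (SD, n = 6 each). CRYBA2 of this list was among those called lower. Markers of other cells were present, and those of 3 lists were in part lower with tunicamycin. Of all genes tested, 3.42% were called lower in the main fit, 6.06% by DESeq2 and 8.6% with the block. At an unadjusted p under 0.05 in the main fit 11.4% were lower. The shares higher were 4.7%, 6.56% and 9.19%, and 11% unadjusted. The duct and acinar list summed to 158 to 325 CPM in the tunicamycin samples and 358 to 566 CPM in the DMSO samples, with 4 of 7 genes called lower. At an unadjusted p under 0.05, 5 of the 7 were lower and 1 was higher, and that 1 was higher in all 6 same-numbered pairs. The liver and gut list summed to 189 to 313 CPM in the tunicamycin samples and 346 to 468 CPM in the DMSO samples, with 4 of 5 tested called lower. Beta, delta and PP markers summed to 1647 to 3351 CPM in the tunicamycin samples and 1268 to 5797 CPM in the DMSO samples, with 3 of 8 tested called lower. Mesenchymal markers summed to 1109.7 to 2131 CPM in the tunicamycin samples and 1305 to 3191 CPM in the DMSO samples. Of these 12 genes 0 were called in the main edgeR fit, 5 were lower at an unadjusted p under 0.05, and DESeq2 called 1 lower and the block 9. Heart muscle markers summed to 36.8 to 1274 CPM in the tunicamycin samples and 36.2 to 2327 CPM in the DMSO samples, high in numbers 4 and 5 of both groups and in DMSO 1. Of these 12 genes 0 were called in the main edgeR fit, and 1 was higher and 1 lower at an unadjusted p under 0.05. DESeq2 called 1 higher, and the block called 1 higher and 2 lower. The part of these cells in the changes above was not tested. Without the samples numbered 1, 4 and 5, a choice made after seeing those sums that leaves 3 samples a group, only SPCS3 of the 36 genes was called, among 42 genes in all (0.223% of all genes higher and 0.0301% lower), while the median of the 36 stayed at 0.34. Without numbers 1 and 3, the numbers with the highest collagen levels in DMSO, 19 were called higher and 2 lower with a median of 0.35, among 5.32% and 3.85% of all genes.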

How the data were processed

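Per the labels' protocols, total RNA of 12 samples was column-purified and made into libraries with a NEBNext Ultra II kit. The authors deposited raw counts per gene symbol, not normalized. The submitters' processing notes name the build GRCh38 and the tools cutadapt (4.4), HISAT2 (2.1.0) and featureCounts (2.0.6), while the sources used here state neither annotation nor strand setting. Gene positions, lengths and overlaps were read from GENCODE 29 on GRCh38, which the authors may not have used. By that annotation, exons of 19 of the 36 genes overlap another counted gene, 17 of them on the other strand, and 7 have named pseudogenes.

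In R 4.3.3, filterByExpr of edgeR 4.0.16 on the groups kept 16613 of 28278 genes. Counts were scaled with TMM factors and tested with edgeR's quasi-likelihood test, sequencing batch as a covariate, over all genes with Benjamini-Hochberg adjustment at 0.05 and no minimum fold. Tests were two-sided, and an adjusted p with no tool beside it is edgeR's. Fold changes divide tunicamycin by DMSO, and ± after a log2 fold change is its standard error. CPM were computed from the scaled library sizes. Alternatives were DESeq2 1.42.0, limma-voom (limma 3.58.1), RLE or no scaling, no filter, no batch term, each batch alone, each sample left out and the sample number as a block. Scripts were tested on simulated data. Where a count was 0, 0.5 was to be added to both counts of a paralog ratio.

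Within groups every 2 samples differed beyond sampling noise (chi-square per gene 10.9 to 99.6), so 12 samples were used. Same-numbered samples deviated together from the mean of their group within the batch, with correlations over genes of 0.52 (number 1), 0.60 (2), 0.54 (3), 0.12 (4), 0.19 (5) and 0.18 (6). Same-numbered samples were therefore compared as pairs, and the number was a block in an alternative fit. The main fit, which gave the calls and adjusted p unless another is named, held batch and not the number. Numbers 4 and 5 correlated more with another number (0.22 and 0.26), and the meaning of a number is not in the labels. The 36 genes, the other lists and the tests were chosen with earlier results of these data known. Full values are given for the 2 genes of each role with the smallest adjusted p, the paralog pairs and genes called lower, and shorter ones for the rest. Some marker genes are not reported here by name. Precision is limited by the 6 samples of a group rather than by depth, except for EMC6.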

Additional observations from a re-analysis of the deposited data

Results flagged for a closer look

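Samples were compared within groups of 6, for each of the 36 genes and for 4 paralog ratios in both groups, by the gap of the highest or lowest sample to its neighbour over the range of the group (critical value 0.625). Of 80 such groups 4 had a sample that stood apart, and chance alone gives about 1 in 20. All 4 were in the tunicamycin group. SRPRA was low in tunicamycin 1 at 197.9 CPM, where the other 5 had 239 to 259 CPM. TRAM1 was high in tunicamycin 2 at 726 CPM, where the other 5 had 449 to 512 CPM. SPCS2 was low in tunicamycin 3 at 181 CPM, where the other 5 had 258 to 279 CPM. EMC3 was low in the same sample at 33.5 CPM, where the other 5 had 46.4 to 53.8 CPM. Without the sample in question SRPRA, TRAM1 and SPCS2 were still called higher (edgeR adjusted p = 0.00581, 3.40e-06 and 8.67e-05), and EMC3, not called with all samples, was called higher (0.0181). What sets these samples apart was not tested. No gene moved one way in every pair of batch 1 and the other way in every pair of batch 2.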

How the results depend on the processing

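Counts of calls depended on the number of samples and on the block more than on scaling. The 1349 called genes of the table (781 higher, 568 lower) became 2954 (1526 and 1428) with the replicate block and 2096 (1006 lower) with DESeq2, and 373 were lower with no batch covariate. Batch 1 alone gave 57 (51 and 6), batch 2 alone 661 (450 and 211), and the fit without the samples numbered 1, 4 and 5, added after seeing the data, 42 (37 and 5). Leaving out 1 sample gave 793 to 1421 called, 518 to 854 higher and 275 to 601 lower. The lowest of each was without tunicamycin 4, and lower calls also dropped without tunicamycin 5 (330), DMSO 1 (363) or DMSO 5 (349). Of the 36 genes 18 were called, 17 of them higher. Batch 1 alone called 3, batch 2 alone 11 and the fit without numbers 1, 4 and 5 called 1, all higher and 0 lower, each with 3 samples a group. Leaving out 1 sample gave 14 to 19 called, 14 to 18 higher and 0 to 2 lower. Called lower were 2 with the replicate block, with DESeq2, with total counts and without numbers 1 and 3. The block added SRP9, SRP68, EMC2, EMC3, EMC7 and TMCO1 and changed no other call among the 36 genes. Their median stayed between 0.30 and 0.38 under every alternative. Signs turned for 3 genes that were not called under any alternative: SPCS1 (-0.04 without tunicamycin 2 or DMSO 4, within -0.040 to 0.085 over all left-out samples), EMC1 (-0.0055 without DMSO 5, within -0.0055 to 0.12, and -0.13 without numbers 1, 4 and 5) and EMC6 (-0.13 in batch 2 alone, against 0.22 in all samples). DESeq2 and total counts each called 22 of the 36 (20 higher), adding SRP9, SRP68, EMC2 and EMC3, among 6.56% and 4.62% of all genes higher and 6.06% and 3.85% lower. RLE scaling and limma-voom changed no call of the 36, and another scaling moved the median of all genes to -0.01 or -0.02. The interaction of treatment and batch stayed at 0 genes with RLE scaling, with no filter and without any 1 sample. All 4 paralog ratios kept their direction and call with 0.5 added, without any 1 sample and with the replicate block (exact sign-flip p = 0.03125 each). The causes of these shifts were not tested, beyond the fewer samples that some fits hold.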
